A study of Mus musculus with 4 samples.

Results

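The respiratory chain genes of the E15 mouse telencephalon were examined across both genomes that encode them. The 103 genes were the protein-coding genes of the table whose symbols name subunits of complexes I to V or carry the mitochondrial prefix mt-, out of 26433 genes in all, 16867 of them protein-coding. Of these, 90 are nuclear and 13 lie on the mitochondrial chromosome. The symbols also took in 15 nuclear genes that are no core part of a complex, namely assembly factors such as Ndufaf1 and isoforms used in other tissues such as Cox4i2, and these are counted apart where it matters. All 103 genes are accounted for, and 102 had enough reads to be tested.

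Bulk RNA came from tissue of embryonic day 15, which the labels call cerebral cortex, of mice whose strain they give as C57BL/6, with 2 libraries per genotype (KI2 and KI3 for cKI f/+, WT1 and WT3 for WT), although the labels speak of triplicates. The cKI f/+ mice carry human SERPINA3 in the Rosa26 locus behind a floxed stop, driven by the CAG promoter, and the Nestin-Cre transgene removes the stop in neural progenitors and their progeny. By the study's methods, founders of the knock-in line were bred with B6D2F2 mice before the cross to Nestin-Cre mice, so the background need not be pure. The WT mice were littermate controls, and whether they carried Cre alone is not given in the sources used here. The study's methods define biological replicates as different mouse embryos, but no label ties a library to an embryo, and p-values measure the spread between these libraries.

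Library totals lay between 17423512 and 18119444 counts. All 8 genes used as markers of cerebral cortex were expressed, with summed levels of 2965 to 3243 CPM (counts scaled to a common library size). Xist, which only cells with an inactive X chromosome express, had 13223 counts in KI2, 11882 in KI3 and 5 in WT1 and in WT3, so the sexes of the embryos and their genotypes cannot be told apart in these data. The 6 choroid plexus markers summed to 9.75 CPM in KI2 and 63.9 CPM in KI3 against 1.30 in WT1 and 2.46 in WT3, with Kl and Kcnj13 at 2 counts or fewer in every library. The 5 meningeal fibroblast markers summed to 20.1 and 17.3 CPM against 6.96 and 9.11 CPM, and the 4 microglia markers to 20.6 and 22.4 CPM against 27.5 and 26.5 CPM. The 9 erythroid markers summed to 509 and 384 CPM against 508 and 538 CPM. The 6 markers of ventral telencephalon summed to 239 and 248 CPM against 243 in WT1 and 305 in WT3, the library that also had the highest mitochondrial share. The part of these cells in the values below was not tested, and in bulk tissue fewer cells of a type and less RNA per cell cannot be told apart.

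The respiratory chain passes electrons from NADH, through complex I, or from succinate, through complex II, to ubiquinone, then through complex III and cytochrome c to complex IV, which reduces oxygen. Complexes I, III and IV pump protons across the inner mitochondrial membrane, and complex V, the ATP synthase, uses the returning protons to make ATP. Complex II is encoded wholly in the nucleus, whereas the other complexes combine nuclear subunits with a few that mitochondria transcribe from their own DNA as long transcripts cut into single mRNAs.

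How well the mitochondrial genes could be counted depends on their sequence, so it is shown first. On chromosome 1 the table lists 7 unprocessed pseudogenes on the minus strand, at chr1:24611535-24616197 of GRCm38, which together span 4663 bases. They are a nuclear copy of a stretch of mitochondrial DNA that runs from inside mt-Co1 to inside mt-Nd4. The order of the genes was kept, with positions rising on the mitochondrial chromosome as they fall on chromosome 1, and with a shift of a single base between mt-Nd3 and mt-Nd4l. Over the 483 bases that mt-Co1 shares with its copy Gm29216 there was 1 difference, A1066T, where the base of mt-Co1 stands first, the position is counted from the first base of mt-Co1, and the base of the copy stands last. The following stretches show how alike they are, 60 bases of each from base 1063 of mt-Co1 and base 10 of Gm29216, with the differing base in capitals.
mt-Co1: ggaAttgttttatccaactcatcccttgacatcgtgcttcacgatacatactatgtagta
Gm29216: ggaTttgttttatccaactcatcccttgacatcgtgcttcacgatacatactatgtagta

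The annotated copy of mt-Co2 held all but the final 3 bases, without a mismatch. The comparison used annotated transcripts, and chromosome 1 sequence outside the annotated pseudogenes was not analysed here. The end of mt-Co2 (bases 622 to 684) and the place where the annotated copy stops inside mt-Nd4 (bases 847 to 906) are shown because they mark where the annotated pseudogenes end, with capitals for bases inside them and lower case for bases outside them.
mt-Co2: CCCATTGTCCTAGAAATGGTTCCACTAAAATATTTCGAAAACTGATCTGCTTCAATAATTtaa
mt-Nd4: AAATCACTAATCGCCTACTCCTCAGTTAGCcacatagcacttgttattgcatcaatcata

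The mitochondrial genes fell into 2 sets that differ in counted reads. mt-Co2, mt-Atp6, mt-Co3, mt-Nd3 and mt-Nd4l each have over 95% of their bases in the annotated copy, and they held between 51.3 and 628 mean counts per 1000 bases. The 5 genes with no base in the chromosome 1 copy, mt-Nd1, mt-Nd2, mt-Nd5, mt-Nd6 and mt-Cytb, held between 9012 and 69934 mean counts per 1000 bases. mt-Co1, with 31.3% of its bases in the copy, and mt-Nd4, with 63.6%, stood with the second set at 82234 and 17752. mt-Atp8, which overlaps mt-Atp6 and has 21.1% of its bases in the annotated copy, had 0 and 1 counts in cKI f/+ and 2 and 0 in WT. Its other bases lie between those matched by the annotated pseudogenes Gm28661 and Gm10925, where chromosome 1 was not analysed. The percentage for mt-Atp8 thus covers the annotated part alone. mt-Atp8 is at or under the floor of 3 counts in every library and received no fold change. Annotated pseudogenes on chromosome 2 share stretches of 31 bases with mt-Co1 (Gm13340, 45.2% of its stretches), mt-Co2 (Gm13341, 47.1%) and mt-Nd2 (Gm13339, 13.5%). Each had 30 counts or fewer in every library. Of the stretches of mt-Nd5, 16.8% stood in some other annotated transcript, and of those of mt-Nd1 0%.

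**Figure D1:**
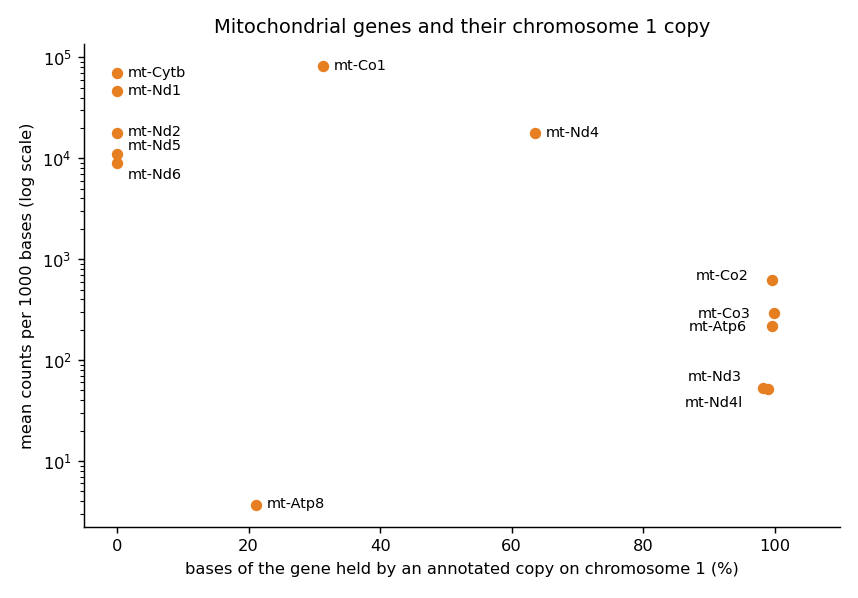
Mean counts per 1000 bases (log axis) of the 13 mitochondrial protein-coding genes against the percentage of their bases held by an annotated chromosome 1 copy, 1 point per gene over the 4 libraries. The 5 genes with over 95% of their bases in the copy lie at 51.3 to 628, and the 5 with none at 9012 to 69934.

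The chromosome 1 copies themselves took few reads, 1214 and 1094 counts over all 7 in cKI f/+ and 1012 and 1056 in WT. Reads from a stretch that is the same in both places cannot be placed by their letters, and how the counting treated them is not given in the sources used here. The part of this in the low counts was not tested. The levels of mt-Co2, mt-Co3, mt-Atp6, mt-Nd3 and mt-Nd4l are therefore not compared with those of other genes below.

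In level per length, mitochondrial mRNAs led the chain. RPKM is the count per kilobase of transcript, scaled for sequencing depth. Here it used the library total and the shortest principal transcript of GENCODE M21. mt-Co1, the catalytic subunit of complex IV, had 4694 and 4393 RPKM in cKI f/+ and 4398 and 5085 RPKM in WT. mt-Cytb, the mitochondrial subunit of complex III, had 4011 and 3752 RPKM against 3655 and 4375 RPKM. mt-Nd1, a membrane-arm subunit of complex I, had 2613 and 2510 RPKM against 2512 and 2776 RPKM. By mean RPKM these were the genes of rank 2, 4 and 8 in the whole table, and in none of them did the genotypes separate.

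The highest nuclear gene was Atp5b, the catalytic beta subunit of ATP synthase, with 611 and 644 RPKM in cKI f/+ and 612 and 617 RPKM in WT. Cox6a1, a subunit of complex IV, followed with 419 and 421 RPKM against 364 and 400 RPKM. The nuclear subunits of complex V had a median of 197 RPKM, those of complex IV 213 RPKM and those of complex III 126 RPKM, whereas complex I and complex II stood at 70.0 and 63.8 RPKM. Next in complex V was Atp5g2, one of the genes for the c ring that turns in the membrane, with a mean of 348 RPKM, and in complex IV Ndufa4, with 344 RPKM. In complex III, Uqcrh and Uqcrq, small accessory subunits, had means of 215 and 210 RPKM. In complex II, Sdhb, the iron-sulfur subunit, had 108 RPKM and Sdha, the flavoprotein that binds succinate, 66.4 RPKM. In complex I the accessory subunits Ndufc2 and Ndufb9 led with 148 and 143 RPKM.

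**Figure D2:**
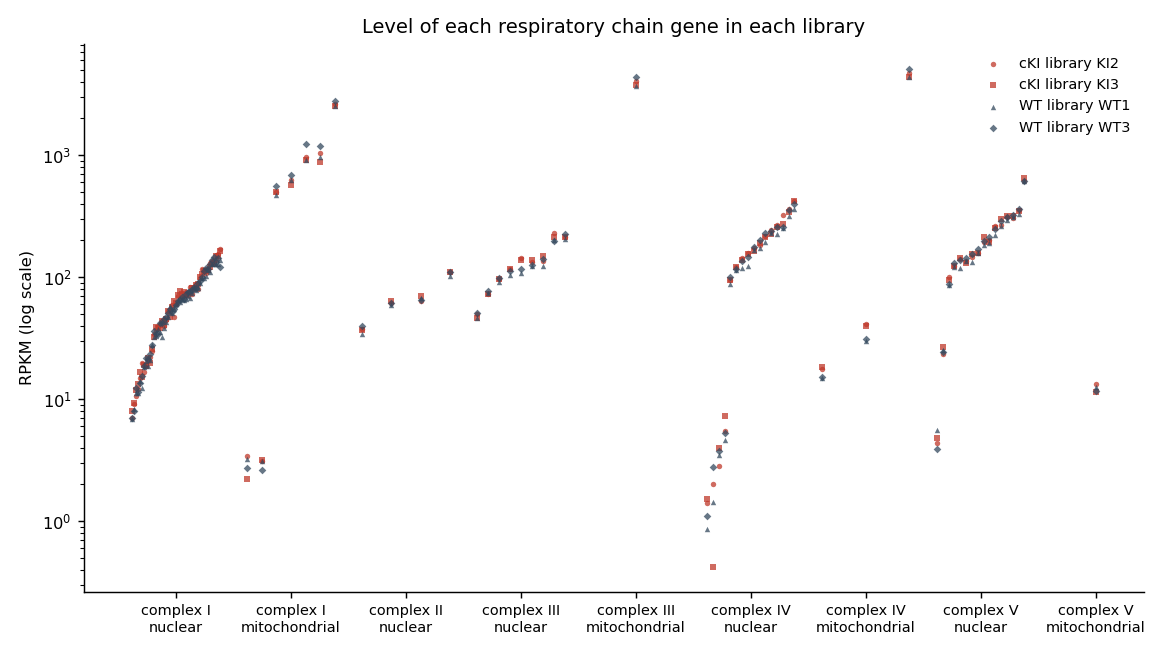
RPKM (log axis) of 102 respiratory chain genes in each of the 4 libraries, by complex and genome, with red for cKI f/+ and dark blue-grey for WT libraries and genes ordered by mean level within each column (mt-Atp8, with 2 counts or fewer, is left out, and the 5 low mitochondrial genes share their sequence with the chromosome 1 copy). Single mitochondrial genes reach 4643 RPKM on average and the nuclear genes 621 RPKM, and the libraries of both genotypes lie on top of each other for most genes.

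Few of these steps in level were larger than the spread between libraries. When the 97 genes other than the mitochondrial ones with under 1000 counts were ordered by mean RPKM, the ranges over the 4 libraries overlapped in 82 of the 96 neighbouring pairs. The top of the order was separated, with mt-Co1 above mt-Cytb, mt-Cytb above mt-Nd1 and mt-Nd1 above mt-Nd2 in every library. From Atp5g2 down, most neighbours overlapped.

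Among subunits that exist as several isoforms, most had a common and a rare form in this tissue. Cox4i1, the general form of complex IV subunit 4, had a mean of 187 RPKM, whereas Cox4i2, known from lung, had 18 and 20 counts in cKI f/+ and 11 and 14 counts in WT. Cox6b1 had a mean of 213 RPKM, against 45 and 61 counts in the cKI f/+ and 38 and 43 counts in the WT libraries for Cox6b2, the testis form. Cox7a2 and the related supercomplex factor Cox7a2l had means of 119 and 171 RPKM, whereas the heart and muscle form Cox7a1 had 14 and 3 counts against 10 and 19. Ndufa4l2, known as a hypoxia-induced relative of Ndufa4, had 47 and 67 counts against 57 and 61. Cox8a had a mean of 251 RPKM. These rare forms had adjusted p-values between 0.969 and 0.994 (edgeR quasi-likelihood test with Benjamini-Hochberg adjustment over all tested genes). The 5 skeletal muscle markers summed to at most 1.16 CPM, most of it Acta1, with 13 and 14 counts in cKI f/+ and 5 and 6 in WT.

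The c ring of ATP synthase is made from 3 genes with different leader peptides and the same mature protein. Atp5g3 supplied 44.4% and 47.5% of their summed counts in cKI f/+ and 46.3% and 46.2% in the WT libraries. Atp5g2 supplied 36.3% and 33.8% against 36.2% and 35.3%. Atp5g1 supplied 19.3% and 18.7% against 17.4% and 18.5%, so that both cKI f/+ libraries lay above both WT libraries. With 2 libraries a group the smallest p an exact permutation test can give is 0.33, which was the value for Atp5g1. Its processed pseudogene Gm10039 had 409 and 483 counts in cKI f/+ against 345 and 379 in WT, 28.4% of the counts of Atp5g1. These reads are not in the shares, so the share of Atp5g1 is uncertain.

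The comparison of cKI f/+ with WT mice asked whether these genes differed with the transgene, and none of the 102 tested genes passed the test. At an adjusted p under 0.05 from edgeR's quasi-likelihood test, 0 members were called where 0.12% of all 15786 tested genes were, 0.0697% higher and 0.0507% lower in cKI f/+ mice. The lowest adjusted p among members was 0.547. DESeq2 and edgeR's likelihood ratio test also called 0 members, where they called 24 and 54 genes over the whole table. At an unadjusted p under 0.05, 6 members were higher and 0 lower in cKI f/+ mice, against 2.26% higher and 2.34% lower among all tested genes.

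These 6 genes belong to complexes I, III and IV. Ndufc2, a small membrane subunit of complex I on chromosome 7 (97400003 to 97407802), had 2068 and 2037 counts in cKI f/+ against 1661 and 1426 in WT. Its level was 115 ± 3.52 CPM (SD, n = 2) against 87.9 ± 8.70 CPM (SD, n = 2). The groups did not overlap, and the log2 fold change was 0.38 with a standard error of 0.09 (edgeR adjusted p = 0.547). Without the library WT1 its log2 fold change was 0.49.

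mt-Co2, which carries the copper center of complex IV that takes electrons from cytochrome c and lies at 7013 to 7696 of the mitochondrial chromosome, had 500 and 491 counts in cKI f/+ and 360 and 367 in WT. The log2 fold change was 0.42 with a standard error of 0.11 (edgeR adjusted p = 0.667). Its copy Gm28661, whose annotated sequence covers all but the final bases, had 326 and 284 counts against 234 and 216, higher in cKI f/+ libraries as well. With the reads of its copies added, mt-Co2 had 826 and 775 against 595 and 585 counts and a log2 fold change of 0.41. The 681 bases it shares with Gm28661 are identical, so reads within them cannot be assigned to the mitochondrial or the nuclear locus. mt-Co1, in the same complex and counted at 119688 to 136888 reads, had a log2 fold change of -0.06.

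Uqcr11, a small subunit of complex III on chromosome 10 (80402997 to 80406830), had 1121 and 1108 counts in cKI f/+ against 850 and 900 in WT, without overlap. The log2 fold change was 0.32 with a standard error of 0.09 (edgeR adjusted p = 0.802). Its processed pseudogene Gm16418 had 146 and 162 counts against 116 and 113, and with both counted together the log2 fold change was 0.33.

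Cox7c, a small subunit of complex IV on chromosome 13 (86044816 to 86046904), had 3093 and 2683 counts in cKI f/+ and 2397 and 2436 in WT, with a log2 fold change of 0.23. Its processed pseudogene Gm12338 had 126 and 275 counts against 227 and 428, lowest in KI2 and highest in WT3, with the genotypes overlapping. With the copies added, Cox7c had 3220 and 2959 against 2626 and 2864 counts, and the log2 fold change was 0.14 with a standard error of 0.09. Without KI2 the log2 fold change of Cox7c was 0.09, and without KI3 it was 0.34.

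Ndufa13, an accessory subunit of complex I on chromosome 8 (69894180 to 69902558), had 1310 and 1295 counts in cKI f/+ against 1119 and 1117, with a log2 fold change of 0.19. Cox5b, the zinc-binding subunit of complex IV on chromosome 1 (36691484 to 36693681), had 2414 and 2443 counts against 1876 and 2207, with a log2 fold change of 0.22, which was 0.10 without WT1 and 0.35 without WT3. For Ndufa13, Cox5b and Cox7c the adjusted p was 0.969 (edgeR). In the 3 genes, counted without copies, the libraries of the genotypes did not overlap. For Cox7c with its copies added, KI3 lay below WT3 once counts were scaled to library size.

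**Figure D3:**
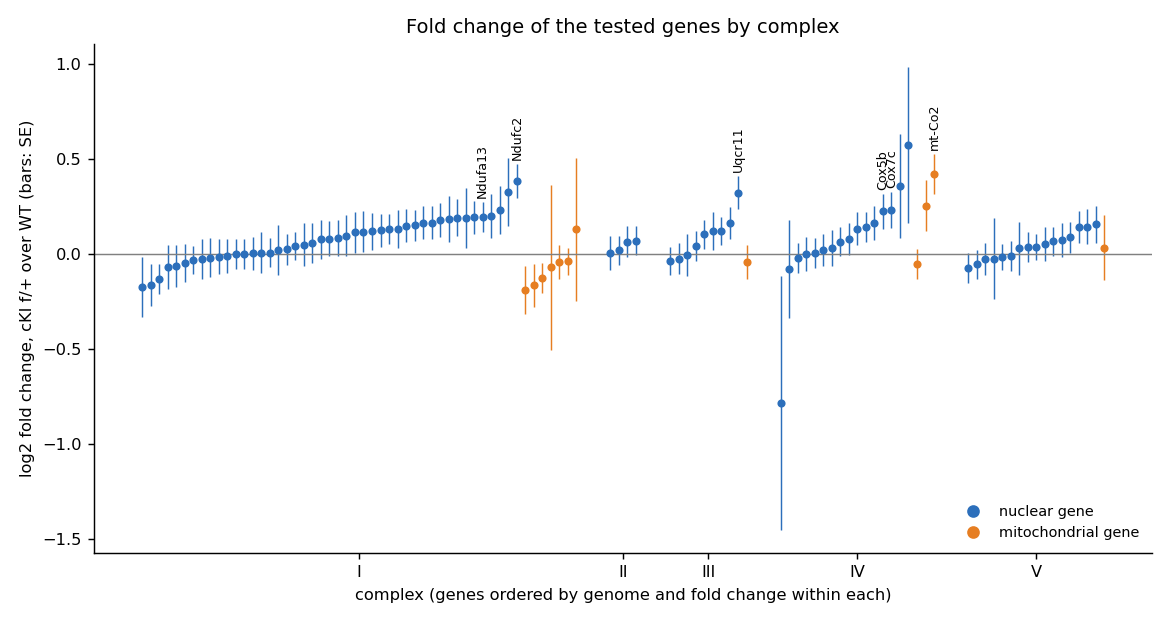
log2 fold change of cKI f/+ over WT for the 102 tested genes, by complex, with bars for the standard error, blue for nuclear and orange for mitochondrial genes. The 6 genes with an unadjusted p under 0.05 are named and all lie above 0, and 0 genes passed at an adjusted p under 0.05.

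Most nuclear genes had log2 fold changes slightly above 0. Of the 90 nuclear members, 64 had a log2 fold change above 0, or 71.1%, against 51.2% of all tested genes. Their median log2 fold change was 0.06, against 0.00 for all tested genes. In 38 of them both cKI f/+ libraries were above both WT libraries, or 42.2%, and in 6 both were below, or 6.67%, where the background was 17.3% and 16.9%. The members are not independent of each other, and 1 library can move many of them together. Without WT1, 50 of the 90 were above 0 and the median was 0.02, and without WT3, 80 were above 0 and the median was 0.12. WT1 held the lowest summed level of nuclear members of the 4 libraries.

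Within the complexes, no group stood out by a gene that passed the test. In complex I, 26 of the 36 nuclear subunits were above 0, with a median of 0.07. Its 29 accessory subunits, which surround the core, had 23 above 0 and a median of 0.08. Its 7 nuclear core subunits, which carry the flavin and iron-sulfur centers, had 3 above 0 and a median of 0.00. The core subunit Ndufs1 had 1144 and 1197 counts in cKI f/+ against 1276 and 1243 in WT, below both, with a log2 fold change of -0.13. The 9 complex I assembly factors had 6 above 0 and a median of 0.11.

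All 4 subunits of complex II were above 0, by between 0.01 and 0.07. In complex III, 6 of 9 nuclear subunits were above 0, with a median of 0.10. Uqcrc1, a matrix-side core protein, had 3896 and 4093 counts against 3571 and 3641, and its partner Uqcrc2 had 2448 and 2493 counts against 2456 and 2519, so they lay on opposite sides of 0 at 0.12 and -0.04. In complex IV, 10 of 11 nuclear subunits were above 0, with a median of 0.08. In complex V, 10 of 15 were above 0, with a median of 0.04, and the beta subunit Atp5b had 20776 and 22359 counts against 20663 and 20582. Atp5a1, the alpha subunit beside it, had 13460 and 14167 counts against 13623 and 13824, and the genotypes overlapped.

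Shorter transcripts had higher values, among genes outside the chain as well. Of the nuclear members, 55 have transcripts of under 1000 bases, and 44 of these were above 0 with a median of 0.09. Among other protein-coding genes of that length, 575 of 867 were above 0, or 66.3%, with a median of 0.05. For 1000 to 2000 bases the medians were 0.02 in members and 0.03 in other genes, and for 2000 to 4000 bases 0.01 and 0.00. Other genes of over 4000 bases had a median of -0.03, and no nuclear member is that long. Both cKI f/+ libraries lay above both WT libraries in 49.1% of the nuclear members of under 1000 bases, and below in 5.45%. In other protein-coding genes of that length these shares were 25.1% and 10.6%. At an unadjusted p under 0.05 (edgeR), 39 of the 867 other genes of that length were higher and 9 lower in cKI f/+ mice. Of the 55 nuclear members of that length, 4 were higher and 0 lower. Among the other protein-coding genes whose RPKM was at or above the median of the members, 68.2% were above 0, with a median of 0.03. In 20.7% of them both cKI f/+ libraries were above both WT libraries, and in 7.53% both were below. The part of length and level in the members' values was not tested.

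**Figure D4:**
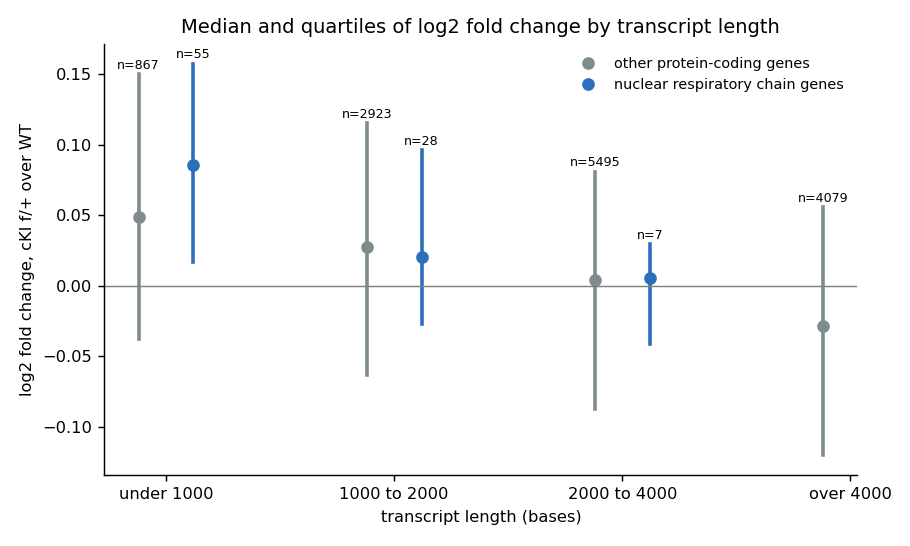
Median (points) and quartiles (bars) of the log2 fold change of cKI f/+ over WT by transcript length, for nuclear respiratory chain genes in blue and all other tested protein-coding genes in grey, with the number of genes above each bar. In both, the median is lower in longer classes, from 0.09 to 0.01 in the members and from 0.05 to -0.03 in the other genes.

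Of the 12 mitochondrial genes tested, 4 were above 0 and the median was -0.04, but without WT3 9 of the 12 were above 0 and the median was 0.04. All 7 genes with over 1000 counts in every library were below 0, between -0.19 for mt-Nd4 and -0.04 for mt-Nd1, and in all 7 the genotypes overlapped. mt-Nd4, a membrane-arm subunit of complex I, had 23603 and 22561 counts in cKI f/+ and 22047 and 29636 in WT, with WT3 well above the other libraries. Without WT1 its log2 fold change was -0.40. mt-Nd2 had 18995 and 16489 counts against 17538 and 21531, and mt-Nd5 had 20188 and 18814 against 20153 and 21732, again with the highest value in WT3. mt-Nd6, at 13552 to 14070, is the gene read from the opposite strand, and only its end overlaps mt-Nd5, at 11742 to 13565. It had 4594 and 4711 counts against 4341 and 5062, or 0.757 to 0.880 RPKM per RPKM of mt-Nd5, and whether the counting used strand is not given in the sources used here.

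Of the 5 tested genes that lie in the chromosome 1 copy, 4 were above 0, with a median of 0.13. mt-Co3 had 244 and 259 counts against 207 in both WT libraries, with a log2 fold change of 0.25, and its copy Gm28437 had 238 and 229 against 181 and 234. mt-Atp6 had 161 and 141 counts against 151 and 139. mt-Nd3 had 19 and 20 counts against 19 and 16, and mt-Nd4l had 18 and 12 against 17 and 14, depths at which differences of this size were not detectable.

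The nuclear and the mitochondrial sets were compared directly through their summed counts. Mitochondrial mRNAs took 1.82% of the counts in KI2 and 1.70% in KI3, and 1.71% in WT1 and 2.004% in WT3. The 6 mitochondrial genes with under 1000 counts in every library added 0.0053% in KI2, 0.0051% in KI3 and 0.0043% in WT1 and in WT3. The sum therefore stands for the 7 genes with over 1000 counts. The group means were 1.76% ± 0.0853 and 1.85% ± 0.210 (SD, n = 2 each), and the exact two-sided permutation test gave p = 0.667. Nuclear members took 0.957% and 0.968% in cKI f/+ against 0.903% and 0.960%, with means of 0.962% ± 0.00799 and 0.931% ± 0.0402 (SD, n = 2 each, exact permutation p = 0.667). The Wilson 95% interval of the mitochondrial share was 1.700% to 1.712% in WT1 and 1.997% to 2.010% in WT3, so counting error is small beside the difference between these libraries.

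The ratio of mitochondrial to nuclear counts, which does not depend on how the libraries were scaled, was 1.90 and 1.75 in cKI f/+ and 1.89 and 2.09 in the WT libraries. The means were 1.83 ± 0.104 and 1.99 ± 0.140 (SD, n = 2 each, exact permutation p = 0.667). The libraries overlapped in all 3 quantities, and after Benjamini-Hochberg adjustment over the 3 tests each p remained 0.667. No difference could have passed this test with 4 libraries. mt-Co1 alone made up between 39.2% and 40.0% of the mitochondrial mRNA counts in the 4 libraries, and mt-Cytb between 24.5% and 25.3%. These are shares of counted reads, to which the 6 genes with under 1000 counts added little. They do not give the make-up of the mitochondrial mRNAs in the tissue.

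**Figure D5:**
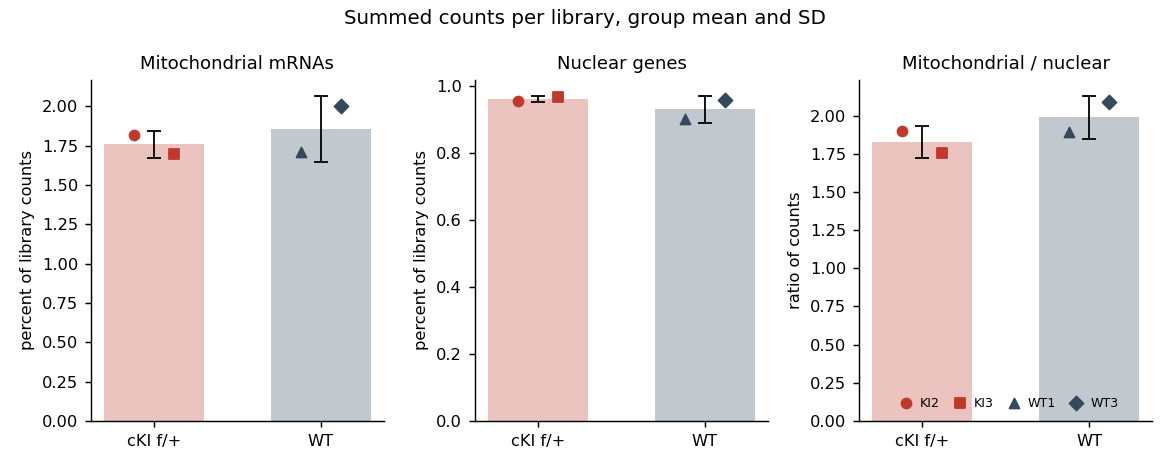
Summed counts of mitochondrial mRNAs and of nuclear respiratory chain genes as a percentage of all counts, and the ratio of both, with symbols for each library, bars for the group mean and whiskers for the SD of 2 libraries. Red and dark blue-grey symbols overlap in each panel, and WT3 has the highest mitochondrial share at 2.004%.

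By complex, the summed nuclear subunits of complex I took 0.244% and 0.247% of the counts in cKI f/+ against 0.228% and 0.241% in the WT libraries. Those of complex III took 0.1023% and 0.1025% against 0.0945% and 0.1002%. In both the groups did not overlap, with an exact permutation p of 0.33, the smallest that 4 libraries allow. The sums of complexes II, IV and V overlapped between genotypes.

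Several nuclear genes share sequence with processed pseudogenes, which could take or lose their reads. An annotated copy was found for 24 of the 90 nuclear members by shared 31-base words, and 31 copies of 21 members had a row in the table. Copies held over 10% of the gene's own counts for 5 members. For Atp5l, a subunit of the membrane part of ATP synthase, copies had 197% of the counts of the gene, most of them Gm10221 with 472 and 464 counts in cKI f/+ and 435 and 467 in WT, so the level of Atp5l is uncertain. Ndufa12, an accessory subunit of complex I on chromosome 10 (94198955 to 94221443), had 920 and 1280 counts against 1067 and 1058, and its copy Gm15920 had 427 and 213 against 187 and 194. KI2 was thus the lowest library for the gene and the highest for the copy. Gene and copy together had 1347 and 1493 counts against 1254 and 1252, and the log2 fold change was 0.15 with a standard error of 0.08, against 0.02 with a standard error of 0.13 for the gene alone.

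Genes on chromosomes X and 17 were read apart, because the sexes differ between the groups and because Glo1, which was called higher in cKI f/+ mice with a log2 fold change of 0.68, lies on chromosome 17. The 3 X-linked members Ndufa1, Ndufb11 and Cox7b were all above 0, by 0.06, 0.13 and 0.02, and 0 were called. Ndufb11 had 1420 and 1415 counts against 1249 and 1293, whereas the genotypes overlapped for Ndufa1, with 536 and 546 against 485 and 535, and for Cox7b, with 1680 and 1731 against 1556 and 1741. Of the 7 members on chromosome 17, 3 were above 0 and the median was 0.00. Ndufv3 had 1042 and 1115 counts against 918 and 934, with a log2 fold change of 0.19 (edgeR adjusted p = 0.969). The other chromosome 17 members, Cox7a2l, Ndufa11, Ndufa7, Ndufaf7, Ndufb10 and Ndufv2, overlapped between genotypes, with log2 fold changes from -0.03 to 0.07.

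Genes that serve the chain from outside also had 0 calls in every list. Among 38 tested assembly factors, 24 were above 0 with a median of 0.02. The lowest p-values were those of Tmem70, which assists the assembly of ATP synthase, with 704 and 757 counts against 576 and 602, and of Foxred1, a complex I assembly factor, with 759 and 780 against 653 and 641. Their log2 fold changes were 0.28 and 0.22 and their adjusted p-values 0.969 (edgeR). Among 14 genes for cytochrome c and coenzyme Q synthesis, 11 were above 0, with a median of 0.06. Coq10b had 267 and 246 counts against 303 and 286, and Coq6, a hydroxylase of the pathway, had 701 and 693 against 633 and 611.

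The mitochondrial ribosome, which translates the mt- mRNAs, had 60 of 77 genes above 0, with a median of 0.05. Mrpl12 had 726 and 739 counts against 601 and 631, and Mrpl30 had 1167 and 1131 against 928 and 1024. Of the genes for the maintenance and expression of mitochondrial DNA, 9 of 25 were above 0, with a median of -0.01. The median transcript length was 2449 bases in this list and 1280 bases in the mitochondrial ribosome, and the difference between the lists was not tested. Mtpap, the mitochondrial poly(A) polymerase, had 427 and 429 counts against 477 and 455, and Supv3l1, a helicase of mitochondrial RNA decay, had 562 and 623 against 525 and 532. Of 8 tested regulators of mitochondrial biogenesis, 4 were above 0, with a median of -0.03. Ppargc1a, the coactivator PGC-1alpha, had 86 and 91 counts against 113 and 108, and Nrf1, a transcription factor of respiratory genes, had 1111 and 1089 against 1284 and 1108. All these genes had adjusted p-values of 0.969 (edgeR).

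Promoters of the nuclear members were searched for the core letters of 3 factors known to control such genes. The window ran from 250 bases before to 50 bases after the start of transcription in RefSeq (GRCm38.p6), and it was found for 75 of the 90 nuclear members, in 81 promoters. The letters GCGCATGC of the NRF1 motif stood in 14.8% of these promoters on either strand, against 2.71% of all 32851 promoters in the RefSeq set and 4.96% of the 13745 promoters of tested protein-coding genes. The letters ATGGCGGC of the YY1 motif stood in 12.3%, against 2.24% and 4.41%, and CCGGAAGT of the ETS factors in 6.17%, against 3.89% and 7.37%. None of the 3 words contains another. Of the 5 nuclear genes with an unadjusted p under 0.05, Uqcr11 had a match, and these letters were not in the windows of Ndufc2, Cox7c, Ndufa13 and Cox5b. The promoter of Uqcr11 is shown, 5′ to 3′ on the minus strand at chr10:80406772-80407071 of GRCm38.p6, because it held both NRF1 and ETS letters, in capitals with the ETS letters first and the NRF1 letters, on the opposite strand, second.
Uqcr11: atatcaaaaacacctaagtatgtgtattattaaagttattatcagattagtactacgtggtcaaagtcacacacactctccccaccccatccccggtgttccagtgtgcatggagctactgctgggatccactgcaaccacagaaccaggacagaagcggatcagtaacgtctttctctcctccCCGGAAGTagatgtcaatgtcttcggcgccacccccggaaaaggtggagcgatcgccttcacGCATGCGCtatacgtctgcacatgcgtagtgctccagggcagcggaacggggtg

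A match of letters is a description of the window and not a site of binding. The promoters of the other nuclear members, among them Cox4i1, Cyc1 and Uqcrc2, were not analysed here.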

How the data were processed

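RNA libraries of E15 tissue were read on an Illumina instrument, and the values used are the raw counts of reads per gene that the authors deposited for 4 libraries. The submitters' processing notes name TopHat2 2.0.12, Bowtie2 2.2.3 and HTSeq 0.6.0, and the build mm9, whereas positions in the table match GRCm38. The column names give the genotype, but their numbers do not settle which labelled sample is which. The authors' own comparison columns, which hold fold changes and p-values, were not used.

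From the counts, edgeR 4.0.16 in R 4.3.3 kept 15786 of 26433 genes with its expression filter, scaled them by TMM (factors 0.995 to 1.003) and fitted its quasi-likelihood model, with Benjamini-Hochberg adjusted p-values over all tested genes and a threshold of 0.05. The biological coefficient of variation was 8.72%. At library totals of 17423512 to 18119444 counts, 3 counts, the floor of detection, equal 0.166 to 0.172 CPM, and intervals and floors cover counting error only. Sums per library were compared by exact two-sided permutation tests. CPM used the scaled library sizes, except for the floor, which like RPKM used the library totals. Transcript lengths came from GENCODE M21. Copies were pseudogenes that share at least 20 words of 31 bases and 25% of their words with a member.

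Members, gene lists and tests were chosen with earlier results of these data known. Named genes were all mt- genes, the highest 2 nuclear genes of each complex, members with an unadjusted p under 0.05, on chromosome X or 17 or in isoform families, and the 2 lowest p-values of each list. Uqcrc1, Uqcrc2, Ndufs1, Ndufa12, Atp5a1 and Atp5l fall outside this rule, having been picked with their values known. DESeq2 1.42.0 and the other alternatives are given in the closing section. Some results on members are not reported here.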

Additional observations from a re-analysis of the deposited data

How the results depend on the processing

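With 2 libraries a group, each test borrows its spread from all genes. The number of called members was 0 under DESeq2's size factors, library totals, scaling without the mt- genes, both other filters on low counts, DESeq2, the likelihood ratio test, without chromosomes X and Y, with structural subunits only and, as an alternative chosen after seeing the data, with the reads of copies added. The lowest adjusted p in any of these fits was 0.0563, for Ndufc2 in the likelihood ratio test. With 1 library left out, 1 group held a lone library, which was assumed to vary like the libraries of the other group. Without WT1 some members then passed, but more genes passed over the whole table as well, so these counts are not given. The median log2 fold change of nuclear members lay between 0.06 and 0.07 in those same alternatives with all libraries, and between 0.02 (without WT1) and 0.12 (without WT3) with 1 library left out. The median of mitochondrial members was -0.04 to -0.06 with all libraries, also, chosen after seeing the data, over the 7 genes with over 1000 counts, and -0.13 (without WT1) to 0.04 (without WT3) with 1 left out. The log2 ratio of the mitochondrial share, cKI f/+ over WT, was -0.08, and it ranged from -0.19 (without WT1) to 0.044 (without WT3, reversed) with 1 library left out. That of the nuclear share was 0.05, with a range of 0.00 to 0.09, and that of their ratio -0.12, with a range of -0.19 to -0.05. Other totals, copies added, structural subunits only and the removal of mt-Co1 kept the direction of each quantity they were run for, and the totals cancel in the ratio. The 6 genes with an unadjusted p under 0.05 kept their direction in every alternative, and of these Ndufc2 alone passed in one, without WT1. No paired analysis was possible because the numbers in the column names match the numbers in the labels for neither genotype as a whole.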
